A study of Mus musculus with 1203 samples.

Results

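In the wild-type plates of a single-cell study of mouse colon, tuft cells were set against non-tuft cells, which were 24.85% and 9.31% of the 1203 wells of the series and together 34.2%. Cells were chosen by 2 of their own transcripts: a tuft cell held at least 50 TPM of Trpm5 and at least 100 TPM of Dclk1, and a non-tuft cell held less than 5 TPM of each. TPM is the length-normalised share of a transcript scaled to the same total in every cell. Both classes came from colon wells of wild-type (wt) female mice aged 11 weeks with at least 1000 genes above 0 TPM, of which tuft cells were 59.2%, non-tuft cells 22.2% and the 94 cells between the 2 rules 18.6%. The wells fall into 3 plate sets, numbered 1, 3 and 6, and values over plate sets are given in that order. Over the 2 plates of set 1, the 2 of set 3 and the 4 of set 6, tuft cells numbered 25 and 32, 39 and 35, and 36, 51, 46 and 35. Non-tuft cells numbered 21, 26 and 65 in the 3 sets. Wells of mice with floxed Ipmk and a Cre driven by the Villin promoter, active in the intestinal epithelium (VillinCre;IPMKf/f, plate sets 2, 4, 5 and 7), were used only to repeat the comparison. No label names an animal, so the wild-type wells are 1 sample, there is no test between conditions and no p-value. Each error is an SD over plate sets, whose spread may be technical only.

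Tuft cells are rare chemosensory cells of the gut lining, recognised by a brush of stiff apical microvilli. They sense luminal metabolites through a cascade shared with taste cells, in which a G protein activates phospholipase C, calcium leaves internal stores and the cation channel TRPM5 opens. They are known to release acetylcholine, leukotrienes, prostaglandins and the cytokine IL-25, and their formation needs the transcription factor POU2F3. The other epithelial cells of the colon are mainly absorptive colonocytes, which take up water, salts and short-chain fatty acids, and goblet cells, which secrete mucus.

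The 2 genes of the rule set the classes far apart. Trpm5, the cation channel of the taste cascade (chr7:143069153-143094642, minus strand, mm10), had 281.99, 254.8 and 196.9 TPM in tuft cells, against 0, 0 and 0.122 TPM in non-tuft cells. Dclk1, a microtubule-associated kinase used as a tuft marker (chr3:55242364-55539068, plus strand), had 709.9, 483.2 and 494.1 TPM in tuft cells, against 0, 0.178 and 0.0743 TPM in non-tuft cells. These values chose the cells and are given as a description. The lowest Trpm5 level of a tuft cell was 56.2 TPM, and the highest among cells with enough Dclk1 that missed the threshold was 49.8 TPM. The lowest Dclk1 level of a tuft cell was 109.7 TPM, and the highest among cells that missed it was 95.6 TPM. Both genes were listed at 0 in 95.5% of non-tuft cells. Of the 94 cells between the rules, 31 passed for Trpm5 alone, 10 for Dclk1 alone and 53 for neither.

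**Figure D1:**
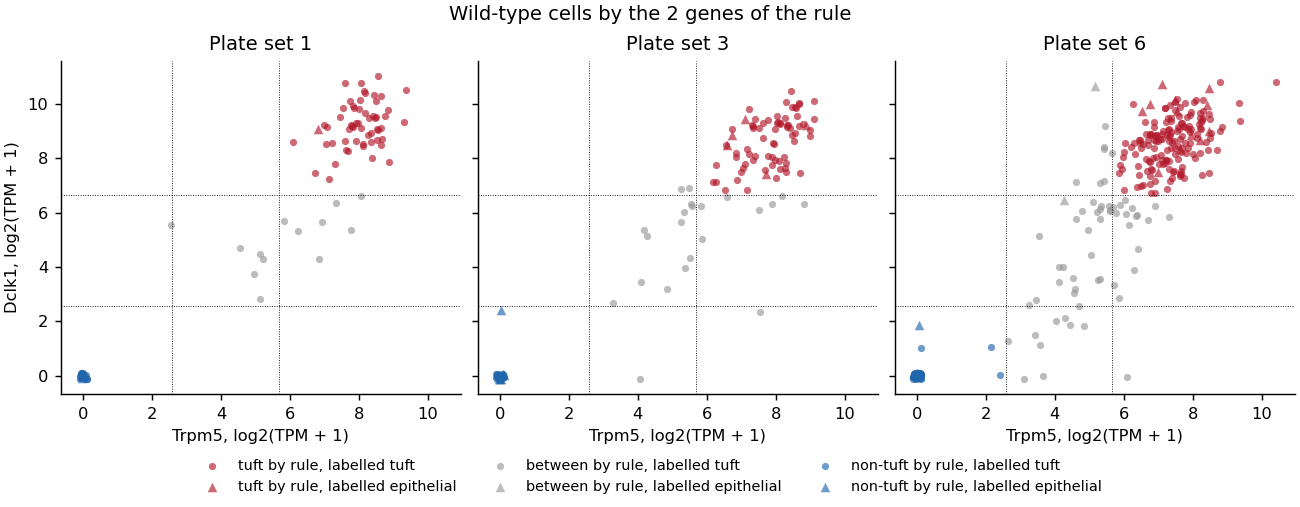
Trpm5 (horizontal) and Dclk1 (vertical) in each kept wild-type cell, as log2(TPM + 1), by plate set. Colour gives the class by rule, circles are wells labelled tuft and triangles wells labelled epithelial, dotted lines mark the thresholds, and points are jittered slightly. Tuft cells fill the upper right corner, 95.5% of non-tuft cells sit at 0 for both genes, and the 94 grey cells lie between.

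The class by rule and the label of the well often differed. The labels' protocols describe a sort of live cells stained for EPCAM, an epithelial adhesion protein, and SIGLEC-F, a lectin found on tuft cells and eosinophils. Of kept wells labelled tuft, 60.3% (exact 95% interval 55.7% to 64.8%) were tuft cells by rule and 93 wells, 20% of them (16.4% to 23.9%), were non-tuft cells. Of 39 wells labelled epithelial, 18 (46.2%, 30.1% to 62.8%) were tuft cells and 19 (48.7%, 32.4% to 65.2%) were non-tuft cells. Transcripts of the sorted protein followed the rule under either label. Among wells labelled tuft, Siglecf was above 0 in 87.5% of tuft cells and 4.30% of non-tuft cells. Among wells labelled epithelial it was above 0 in 15 of 18 tuft cells and 0 of 19 non-tuft cells.

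The non-tuft class was epithelial with a minority of immune transcripts. Epcam was above 0 in 97.3% of non-tuft cells, and Krt20 or Guca2a, genes of mature colonocytes, in 88 cells (78.6%). Muc2, the gel-forming mucin of goblet cells, reached 100 TPM in 18 cells (16.1%). At least 1 of Ptprc, Cd3e, Cd74 and Lyz2, genes of blood cells and antigen-presenting cells, was above 0 in 16 cells (14.3%), and 93 of the non-tuft cells carried the tuft label. In tuft cells the summed level of 11 macrophage markers was at most 0.602 TPM in any plate set, that of 16 lymphocyte markers at most 1.79 TPM and that of 8 eosinophil markers at most 0.14 TPM. In non-tuft cells the macrophage sum was 905.1, 0.854 and 144.2 TPM, the lymphocyte sum 4.28, 75.5 and 1.57 TPM and the eosinophil sum at most 6.26 TPM. Lyz2, C1qa, C1qb and C1qc were all listed at 0 in tuft cells. C1qb and C1qc were listed at 0 in non-tuft cells too, and Lyz2 was above 0 in 5 non-tuft cells (4.46%).

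The classes also differed in depth and composition. The median number of genes above 0 was 2675, 2882 and 2674 in tuft cells and 2444, 1864 and 4041 in non-tuft cells. The 18S ribosomal RNA entry took 78.9% of all TPM in tuft cells and 65.9% in non-tuft cells, and mitochondrial genes took 2.75% and 9.29%. All genes share the fixed total, so these shares bear on every level below. At these numbers of cells, the sides of the exact 95% interval of a share average at most 5.81 percentage points in tuft cells. In non-tuft cells they average at most 9.6. For a share of 0, 3 cells over the number of cells gives 1% and 2.68%, and the exact upper limit in tuft cells is 1.23%. These limits cover counting error only.

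Differences were taken as log2((mean TPM in tuft cells + 1)/(mean TPM in non-tuft cells + 1)) within each plate set, which understates the change of low genes, and averaged over the 3 sets. Of 3134 genes with a mean of at least 10 TPM in either class, Trpm5 and Dclk1 aside, 7.40% were at least 2-fold higher in tuft cells in each plate set and 15.6% were at least 2-fold lower in each. These are the genes called higher and lower below, and the counts of called genes in each list are to be read against these 2 shares. The median difference of all 3134 genes was −0.51. Of the called genes 32.2% were higher. With TPM rescaled to a fixed total without the 18S, mitochondrial and 20 most abundant other genes, the 10 TPM minimum admitted 10154 genes, of which 1238 were higher and 887 lower, and their median was 0.28. Over the same 3134 genes, a setting added after seeing the data, rescaling called 12.4% higher and 12.5% lower, 49.9% of called genes were higher, and the median was 0.02. No gene called in one direction was called in the other under either. The values of the 2 classes did not overlap across plate sets for 1472 genes (47%). A gene listed at 0 in every cell of a class is given no fold: 30 genes called higher were at 0 in non-tuft cells and 10 called lower were at 0 in tuft cells.

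**Figure D2:**
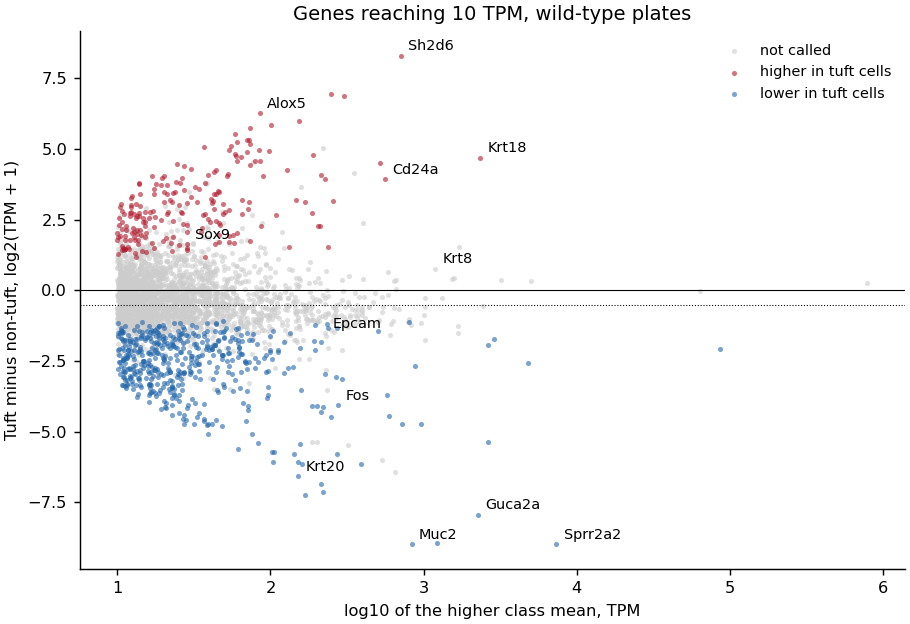
Each point is a gene that reached 10 TPM and was above 0 in both classes, without Trpm5 and Dclk1. The horizontal axis is the log10 of the higher of the 2 class means in TPM and the vertical axis the tuft minus non-tuft difference in log2(TPM + 1), averaged over 3 plate sets. Red genes were higher and blue genes lower in tuft cells at least 2-fold in every plate set, and the dotted line is the median of all genes, −0.51.

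Genes of the taste cascade had differences of both signs. Of 14 listed genes 8 reached 10 TPM, and 5 of them were called higher in tuft cells and 2 lower. The median difference of all 14 was 0.21. Gnat3, the taste G protein alpha subunit gustducin, had 25.8, 13.7 and 13.4 TPM in tuft cells and was listed at 0 in all non-tuft cells. It was above 0 in 50.2% of tuft cells. Gng13, its gamma subunit, was likewise listed at 0 in non-tuft cells and had 14.1, 8.55 and 13.3 TPM in tuft cells, but only 7.69% of tuft cells had it. Plcb2, the phospholipase C of taste cells, had 47.9, 42.1 and 38.6 TPM in tuft cells, against 1.16, 14.8 and 1.01 TPM in non-tuft cells, a difference of 3.42 ± 1.71 on the log2 scale (SD, n = 3). It was above 0 in 96.99% of tuft cells and 8.04% of non-tuft cells. Plcg2, a phospholipase C better known from B cells, was above 0 in 97.99% of tuft cells and 4.46% of non-tuft cells and differed by 3.81 ± 1.64. Itpr2, the receptor through which inositol trisphosphate releases calcium, had 58.3, 42.6 and 35.6 TPM in tuft cells, against 1.5, 5.83 and 2.78 TPM in non-tuft cells and differed by 3.50 ± 0.97. The groups did not overlap across plate sets for any of these 5 genes, nor for 47% of all genes tested. A call of at least 2-fold in each plate set makes such a gap likely. Trpm4, a cation channel related to Trpm5, went the other way with 0.852, 0.538 and 0.715 TPM in tuft cells, against 13.7, 14.1 and 13.03 TPM in non-tuft cells. Prkcd, a protein kinase C, was also lower, with 0.541 TPM in tuft cells and 36.6 TPM in non-tuft cells. Gnb1, a widely expressed beta subunit, was not called (0.57 ± 0.21).

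Among receptors, 5 of 18 listed genes reached 10 TPM. Cd300lf, a lipid-binding receptor that is the entry receptor of murine norovirus, had 77.2, 73.2 and 59.8 TPM in tuft cells, against 0, 1.996 and 0.842 TPM in non-tuft cells and a difference of 5.32 ± 0.86 (SD, n = 3). It was above 0 in 94.98% of tuft cells and 2.68% of non-tuft cells. Ffar3, a receptor for short-chain fatty acids, had 44.1, 35.6 and 23.5 TPM in tuft cells and Il17rb, the subunit of the IL-25 receptor that binds the cytokine, had 30.3, 23.7 and 16.7 TPM, and both were listed at 0 in non-tuft cells. Ffar2, the related fatty acid receptor, was called lower, with 1.57, 2.83 and 0.316 TPM in tuft cells, against 28.8, 7.03 and 8.56 TPM in non-tuft cells. That call was lost under 11 of the alternatives tried, among them the omission of plate set 1. Il13ra1, a subunit of the IL-13 receptor, had 16.4 TPM in tuft cells and 7.004 TPM in non-tuft cells and was not called. Adora1 (adenosine) and Gabbr1 (GABA) were above 0 in 48.8% and 59.2% of tuft cells and in 2.68% and 9.82% of non-tuft cells, with means below 10 TPM.

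Several enzymes of leukotriene and prostaglandin synthesis were higher in tuft cells. Of 14 listed genes 8 reached 10 TPM, 5 were called higher and 1 lower. The median difference of all 14 was −0.11, and it was 0.03 after rescaling. Alox5, the lipoxygenase that starts leukotriene synthesis, had 101.3, 93.9 and 59.7 TPM in tuft cells, against 0, 0 and 0.332 TPM in non-tuft cells and differed by 6.25 ± 0.64 (SD, n = 3). Its partner Alox5ap, which presents arachidonic acid to it, had 161.2, 53.4 and 51.99 TPM in tuft cells, against 9.76, 0 and 8.99 TPM in non-tuft cells, and Ltc4s, which makes leukotriene C4, had 152.7, 173.7 and 135.5 TPM in tuft cells, against 0, 13.8 and 0 TPM in non-tuft cells. Plate set 3 was the set in which non-tuft cells held Ltc4s, and a single cell accounted for all of it. Ptgs1, cyclooxygenase 1, had 61.4, 46.9 and 37.1 TPM in tuft cells, was above 0 in 91.3% of them, and was listed at 0 in all non-tuft cells. Hpgds, the prostaglandin D synthase of blood cells, was low but called higher, with 14.6, 12.8 and 9.05 TPM in tuft cells, against 0, 3.48 and 0.583 TPM in non-tuft cells. Hpgd, which degrades prostaglandins, was called lower, with 4.83, 4.69 and 4.41 TPM in tuft cells, against 47.5, 25.98 and 28.98 TPM in non-tuft cells and a difference of −2.59 ± 0.42. Mgst2 and Ptges3, a microsomal transferase and a co-chaperone with prostaglandin E synthase activity, were not called.

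Chat, choline acetyltransferase, was the only acetylcholine gene of 9 listed to reach 10 TPM. It had 21.5, 16.6 and 14.8 TPM in tuft cells, 82.9% of which held it, and was listed at 0 in non-tuft cells. The choline transporter Slc5a7 was listed at 0 in both classes and the vesicular transporter Slc18a3 in non-tuft cells. Il25, the cytokine of tuft cells, stayed below 10 TPM with 6.01, 3.82 and 8.98 TPM in tuft cells, and was above 0 in 24.7% of tuft cells and no non-tuft cell. Il18, an epithelial cytokine, was called lower with 0.201 TPM in tuft cells and 12.4 TPM in non-tuft cells, a call lost without plate set 1.

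Of 15 transcription factors known from tuft cells, 7 reached 10 TPM, 6 were called higher and 1 lower. Pou2f3, the POU-domain factor that tuft cells need to form, had 27.1, 18.1 and 17.96 TPM in tuft cells, against 0, 6.21 and 0.148 TPM in non-tuft cells and was above 0 in 82.3% of tuft cells and 1.79% of non-tuft cells. Spib, an Ets factor also active in B cells, had 58.3, 44.2 and 29.5 TPM in tuft cells, against 0, 4.57 and 11 TPM in non-tuft cells and was above 0 in 94.6% of tuft cells and 3.57% of non-tuft cells. Hmx3, a homeobox gene, had 14.9, 18.4 and 12.9 TPM in tuft cells and was listed at 0 in non-tuft cells. Runx1, a factor of blood cell formation, was above 0 in 81.6% of tuft cells and 21.4% of non-tuft cells, Sox9, a factor of crypt cells, in 97.7% of tuft cells and 41.96% of non-tuft cells, and Ehf, an epithelial Ets factor, in 91.3% of tuft cells and 51.8% of non-tuft cells. Their log2 differences were 2.19 ± 0.32, 1.63 ± 0.57 and 1.73 ± 0.31 (SD, n = 3). Klf6, a zinc finger factor induced early after stimulation, was called lower with 3.97, 5.58 and 3.74 TPM in tuft cells, against 44.9, 14.8 and 31.3 TPM in non-tuft cells. Below the 10 TPM floor, Gfi1b was above 0 in 40.8% of tuft cells and 1.79% of non-tuft cells, Hmx2 in 43.5% of tuft cells and 0% of non-tuft cells, Nfatc1 in 84.6% of tuft cells and 13.4% of non-tuft cells and Zfhx3 in 93.98% of tuft cells and 22.3% of non-tuft cells. Ascl2, a factor of stem cells, averaged 1.71 TPM in tuft cells and 2.53 TPM in non-tuft cells.

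POU factors bind the octamer ATGCAAAT. In RefSeq promoter windows (build GRCm38.p6, from 250 bases before to 50 bases after each start), the octamer on either strand was present for 10 genes called higher (5.92% of those with a window), 8 called lower (2.19%), 28 of 1659 tested and not called (1.69%) and 1.97% of all 27025 genes. Genes called higher had 1.44 windows each, against 1.31, 1.3 and 1.22 for the other groups, and a gene with more windows has more chances to hold a motif. A match is a description of the letters and not a binding site. Il18 was among the 8 genes called lower with an octamer. The windows of 4 genes called higher are printed from 5′ to 3′ in the sense of the gene. Capitals mark the octamer or its reverse complement ATTTGCAT. These 4 genes were chosen for their motif after the values were seen. Hpgds is the prostaglandin synthase above, Ly6g6d a surface protein, Kctd12 a partner of GABA-B receptors and Cables2 a protein that binds cyclin-dependent kinases. The Hpgds window lies at chr6:65144681-65144980, minus strand, that of Ly6g6d at chr17:35081190-35081489, minus strand, that of Kctd12 at chr14:102982588-102982887, minus strand and that of Cables2 at chr2:180273416-180273715, minus strand.
Hpgds: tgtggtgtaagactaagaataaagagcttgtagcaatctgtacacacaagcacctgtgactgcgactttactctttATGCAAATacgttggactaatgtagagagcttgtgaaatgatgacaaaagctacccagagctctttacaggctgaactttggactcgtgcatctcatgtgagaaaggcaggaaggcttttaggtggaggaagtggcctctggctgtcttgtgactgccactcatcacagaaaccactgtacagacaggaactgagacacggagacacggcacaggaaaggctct
Ly6g6d: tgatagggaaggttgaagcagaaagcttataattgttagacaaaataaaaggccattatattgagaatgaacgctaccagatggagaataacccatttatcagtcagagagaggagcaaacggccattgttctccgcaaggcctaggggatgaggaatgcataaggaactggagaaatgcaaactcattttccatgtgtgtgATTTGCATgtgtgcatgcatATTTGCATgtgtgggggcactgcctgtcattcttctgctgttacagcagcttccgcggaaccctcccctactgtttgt
Kctd12: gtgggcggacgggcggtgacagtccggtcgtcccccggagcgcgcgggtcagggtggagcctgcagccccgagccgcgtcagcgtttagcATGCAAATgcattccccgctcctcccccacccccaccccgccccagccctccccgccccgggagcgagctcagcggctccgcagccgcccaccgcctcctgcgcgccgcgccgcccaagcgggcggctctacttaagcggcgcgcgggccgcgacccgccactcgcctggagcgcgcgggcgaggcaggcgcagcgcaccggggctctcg
Cables2: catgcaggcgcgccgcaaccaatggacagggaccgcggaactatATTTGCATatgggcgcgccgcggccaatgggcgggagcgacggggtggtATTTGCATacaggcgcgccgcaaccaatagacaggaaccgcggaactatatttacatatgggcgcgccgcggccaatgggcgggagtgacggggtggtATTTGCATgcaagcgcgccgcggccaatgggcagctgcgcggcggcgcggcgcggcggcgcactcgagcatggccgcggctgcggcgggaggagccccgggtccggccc
Hpgds and Kctd12 hold 1 copy, Ly6g6d 2 and Cables2 3. Ly6g6d had 73.95, 37.8 and 48.5 TPM in tuft cells, against 10.04, 5.58 and 4.34 TPM in non-tuft cells, and 45.5% of tuft cells and 6.25% of non-tuft cells held it. Kctd12 had 57.8, 52.2 and 49.4 TPM in tuft cells, against 0.708, 1.17 and 7.04 TPM in non-tuft cells, with 80% of its summed non-tuft level in a single cell. Cables2 had 16.5, 15.7 and 9.25 TPM in tuft cells, against 0.964, 1.79 and 0.851 TPM in non-tuft cells.

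Signalling genes best known from blood cells were mostly higher in tuft cells. Of 30 listed genes 26 reached 10 TPM, and 22 of these were called higher and 1 lower. The median difference of the 24 members above 0 in both classes was 4.26, against −0.51 over all genes tested. Matk, a kinase that restrains Src kinases, had 355.7, 297.1 and 249.7 TPM in tuft cells, against 1.69, 3.51 and 0.367 TPM in non-tuft cells and differed by 6.87 ± 0.75 (SD, n = 3). Sh2d6, an SH2 adaptor, had 977.3, 510.4 and 646.9 TPM in tuft cells, against 0, 9.46 and 0 TPM in non-tuft cells. The 9.46 TPM of plate set 3 came from 1 cell. Ptpn6, the phosphatase SHP-1, was the second most abundant of the list with 725.2, 419.9 and 407.3 TPM in tuft cells, against 12.02, 38.5 and 20.4 TPM in non-tuft cells, and Inpp5d, the lipid phosphatase SHIP1, had 65.1, 48.6 and 46.04 TPM in tuft cells, against 0.347, 0.938 and 0.922 TPM in non-tuft cells. Vav1, an exchange factor for Rac, was above 0 in 96.99% of tuft cells and 6.25% of non-tuft cells, and Rac2, a Rac protein of blood cells, in 94.3% of tuft cells and 7.14% of non-tuft cells. Pik3r5 and Pik3cg, subunits of a phosphoinositide 3-kinase controlled by G proteins, were above 0 in 99.7% and 95.99% of tuft cells and in 4.46% and 7.14% of non-tuft cells. Bmx, a Tec-family kinase, had 15.3, 16.1 and 11.98 TPM in tuft cells and was listed at 0 in non-tuft cells. Siglecf (chr7:43351341-43359531, plus strand), part of the sort, had 80.9, 80.2 and 51.1 TPM in tuft cells, against 1.16, 0 and 5.01 TPM in non-tuft cells, a difference of 4.90 ± 1.64. Ptprc, the pan-leukocyte phosphatase CD45, was not called because plate sets 1 and 6 fell short, with 18.5, 8.67 and 9.58 TPM in tuft cells, against 12.1, 0.463 and 4.4 TPM in non-tuft cells, yet 76.3% of tuft cells and 5.36% of non-tuft cells held it. Markers of macrophages, lymphocytes and eosinophils were at or near 0 in tuft cells, as given above. Coro1a, an actin regulator of leukocytes, was called lower at −2.91, and without the non-tuft cells that held immune genes its difference was 0.92.

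Further genes higher in tuft cells had other roles. Rgs13, a regulator of G protein signalling, had 51.6, 69.4 and 54.7 TPM in tuft cells, against 0, 0.775 and 0.192 TPM in non-tuft cells, and Agt, angiotensinogen, had 78.2, 84 and 59.05 TPM in tuft cells, against 0.342, 0.456 and 0.322 TPM in non-tuft cells, differences of 5.52 ± 0.20 and 5.75 ± 0.21 (SD, n = 3). Rgs2 and Rgs14, of the same family, were not called. Of 20 genes known from neurons, 19 of them in the table, 4 reached 10 TPM and 2 were called higher. The median difference of the 19 was 0. Nrep and Ninj1, which also reached 10 TPM, had differences of −1.20 and −1.48 and were not called. Nrgn, a calmodulin-binding protein of dendrites, had 27.6, 16.1 and 17.6 TPM in tuft cells and was listed at 0 in non-tuft cells, and Cacna2d2, a calcium channel subunit, was above 0 in 55.9% of tuft cells and 7.14% of non-tuft cells. Snap25, Uchl1 and Syt1, defining genes of synapses and neurons, were listed at 0 in tuft cells, and Snap25 and Uchl1 in non-tuft cells too. Tspan6, a tetraspanin, had 84.5, 84.6 and 49.1 TPM in tuft cells, against 0.374, 2.31 and 0.281 TPM in non-tuft cells. Fyb, an adaptor of T cells and myeloid cells from the list above, had 83.8, 74.4 and 63.98 TPM in tuft cells, against 2.17, 0.605 and 0.784 TPM in non-tuft cells. Adh1, an alcohol dehydrogenase, was among the more abundant genes of tuft cells with 358.1, 492.5 and 347.2 TPM in tuft cells, against 37.8, 256.3 and 44.4 TPM in non-tuft cells but was not called, as plate set 3 fell short of 2-fold.

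Genes of the cytoskeleton and apical brush were called higher in 10 of the 20 listed members that reached 10 TPM, of 22 in all, and lower in 3. Krt18 (chr15:102028180-102032027, plus strand), a keratin of simple epithelia, was the most abundant of all genes called higher, with 3072, 2049 and 1864 TPM in tuft cells, against 76.5, 75.1 and 114.4 TPM in non-tuft cells and a difference of 4.69 ± 0.65 (SD, n = 3). Its partner Krt8 had 1514, 1095 and 946.6 TPM in tuft cells, against 1017, 409.7 and 772.98 TPM in non-tuft cells and was not called. Krt23 had 102.8, 81.5 and 67.03 TPM in tuft cells, against 4.54, 0.329 and 1.71 TPM in non-tuft cells. Avil, an actin-severing protein of the villin family, was above 0 in 99% of tuft cells and 1.79% of non-tuft cells, whereas Vil1, villin itself, had 52.8 TPM in tuft cells and 38.9 TPM in non-tuft cells and was not called. Espn, which bundles the actin of microvilli, differed by 2.28 ± 0.20 and Tuba1a, an alpha tubulin, by 4.09 ± 0.33. Cd24a, a surface protein often used to enrich tuft cells, had 713.5, 535.9 and 435.2 TPM in tuft cells, against 18.4, 79.4 and 29.3 TPM in non-tuft cells. Ezr, which ties microvillar actin to the membrane, and Eps8, which caps it, were called lower, at −1.59 ± 0.23 and −1.93 ± 0.24. Ezr was no longer called after rescaling.

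Calcium genes were mixed, with 3 of 9 reaching 10 TPM called higher and 2 lower, of 18 listed. Atp2a3, the calcium pump of internal stores found in blood cells, had 306.97, 273.2 and 192.2 TPM in tuft cells, against 20.1, 46.9 and 20.9 TPM in non-tuft cells, and every tuft cell held it. Camk2b, a calmodulin-dependent kinase of brain, was above 0 in 83.3% of tuft cells and 0.893% of non-tuft cells. Atp2b4, a calcium pump of the plasma membrane, had the third highest mean of the genes called higher, 1004, 516.3 and 387.7 TPM, and was listed at 0 in non-tuft cells. Only 29 tuft cells (9.70%) held it, and a single cell held 16.7% of the summed level. S100g, a calcium-binding protein of absorptive cells, was called lower with 0, 0 and 5.48 TPM in tuft cells, against 308.9, 61.8 and 55.9 TPM in non-tuft cells.

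**Figure D3:**
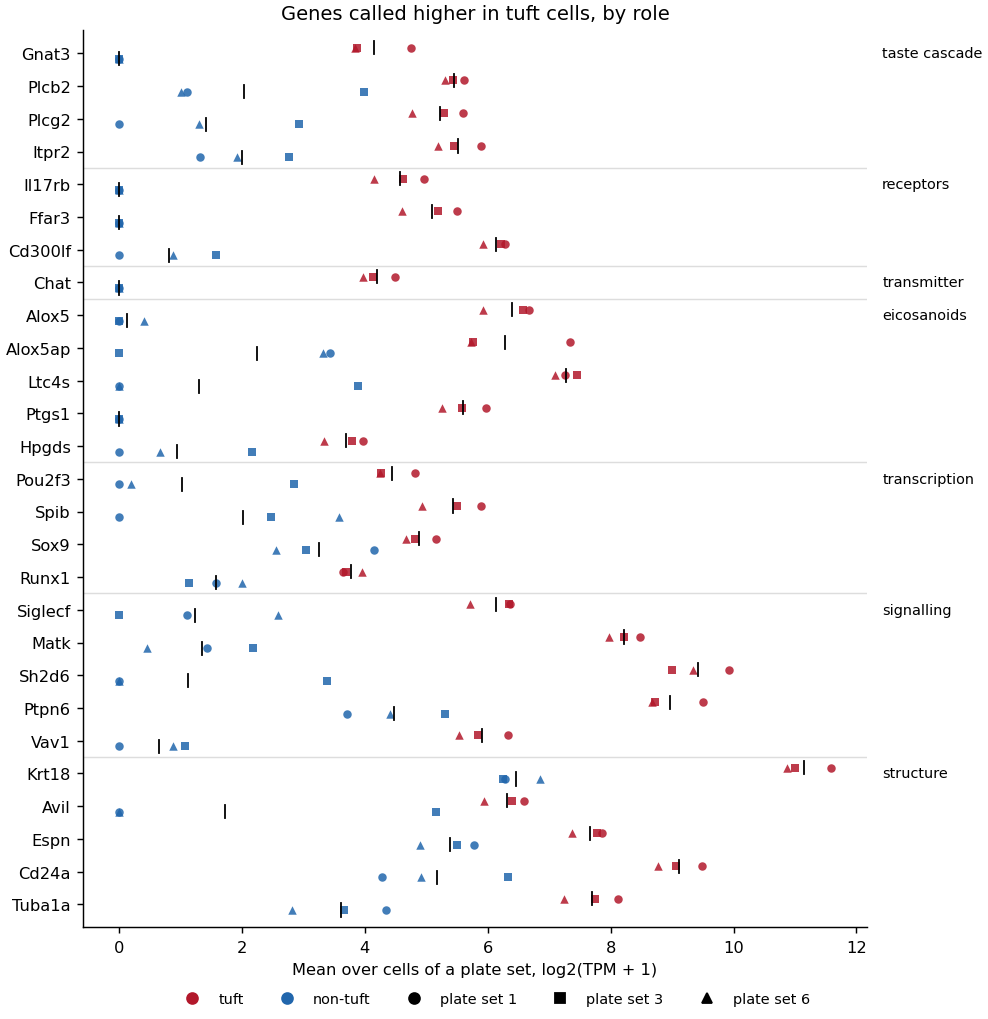
Levels of 27 genes called higher in tuft cells, by role. Each point is the mean over cells of a plate set in log2(TPM + 1), red for tuft and blue for non-tuft cells, with a marker per plate set and a bar at the mean of the 3 sets. The red and blue points do not overlap for any gene, as for 47% of all genes tested. The blue squares of Avil, Ltc4s and Plcb2 stand out to the right, where 1 cell of plate set 3 held most of the level.

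Several goblet genes and colonocyte genes were lower in tuft cells. Of 17 goblet genes 8 reached 10 TPM and 6 were called lower, none higher. Muc2 (chr7:141690340-141754693, plus strand) had 0.309, 0 and 0.41 TPM in tuft cells, against 1232, 175.6 and 1093 TPM in non-tuft cells, a difference of −8.98 ± 1.32 (SD, n = 3), with 2.68% of tuft cells and 25.9% of non-tuft cells holding it. Zg16, a lectin of goblet granules, averaged 1.33 TPM in tuft cells and 1227 TPM in non-tuft cells. Fcgbp, a mucus protein that binds IgG, averaged 0.047 TPM in tuft cells and 166.9 TPM in non-tuft cells. Agr2, the disulfide isomerase needed for mucin assembly, had 0.47, 0.628 and 0.602 TPM in tuft cells, against 81.4, 183.4 and 378.2 TPM in non-tuft cells. Tff3, a trefoil peptide, and Clca1, a mucus protease, were listed at 0 in tuft cells and had 396.4, 238.4 and 262.7 TPM and 88.2, 20.6 and 24.7 TPM in non-tuft cells. Few non-tuft cells carried these levels: Zg16 was above 0 in 8.93%, Tff3 in 8.04%, and the highest cell held 38.6% of the summed Zg16. Leaving out the highest cell of each class and plate set ended the calls of Zg16, Fcgbp and Tff3 and not those of Muc2, Agr2 or Clca1.

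Of 25 colonocyte genes 21 reached 10 TPM, 18 were called lower and none higher. Guca2a, the gut peptide guanylin, had 9.18, 4.47 and 7.84 TPM in tuft cells, against 3249, 823.7 and 2722 TPM in non-tuft cells and was above 0 in 7.02% of tuft cells and 75% of non-tuft cells. Krt20, a keratin of differentiated cells, had 0.224, 0.247 and 0.959 TPM in tuft cells, against 229.2, 69.9 and 157.8 TPM in non-tuft cells. Car1, a carbonic anhydrase, had 152.8, 15.9 and 84.8 TPM in tuft cells, against 3283, 1653 and 2904 TPM in non-tuft cells and Lypd8, a secreted protein that binds flagella, 37.6, 28.95 and 33.4 TPM in tuft cells, against 1223, 566.02 and 1077 TPM in non-tuft cells. Fabp2, a fatty acid binding protein, Cyp2c55, a cytochrome P450, and Car4, another carbonic anhydrase, differed by −5.71 ± 1.48, −5.77 ± 0.69 and −5.39 ± 0.54 (SD, n = 3). Ceacam1, a cell adhesion protein, was called lower at −2.12 ± 0.33 although 96.3% of tuft cells and 93.8% of non-tuft cells held it. Cdhr5, a microvillar protocadherin, had 153.1 TPM in tuft cells and 113.4 TPM in non-tuft cells and was not called. Outside the lists, Sprr2a2, a small proline-rich protein of barrier epithelia, was the most abundant nuclear gene called lower, with 4.5, 10.7 and 36.4 TPM in tuft cells, against 10725, 3851 and 7454 TPM in non-tuft cells. Its paralog Sprr2a3 had 0, 1.77 and 2.29 TPM in tuft cells, against 155.1, 83.5 and 243.8 TPM in non-tuft cells, and reads of such close paralogs may be divided between them uncertainly. Muc3, a membrane mucin, had 0.594 TPM in tuft cells and 219.9 TPM in non-tuft cells, Pmp22, a membrane protein of junctions and myelin, 0.306 TPM in tuft cells and 103.8 TPM in non-tuft cells, and Phgr1, a small protein of gut epithelium, 28.8 TPM in tuft cells and 717.4 TPM in non-tuft cells.

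Enzymes of detoxification and lipid metabolism were mostly lower, with 17 of 20 that reached 10 TPM called lower and 1 higher, of 26 listed. Ces2c, a carboxylesterase, had 0.0825, 0 and 5.92 TPM in tuft cells, against 99.5, 87.6 and 119.02 TPM in non-tuft cells, and Sult1b1, a sulfotransferase, 0.489, 0.409 and 0.782 TPM in tuft cells, against 18.1, 13.9 and 16.8 TPM in non-tuft cells. Ugt1a7c, a glucuronosyltransferase, and Gpx2, the glutathione peroxidase of gut, differed by −2.90 ± 0.08 and −2.85 ± 0.65 (SD, n = 3). The exception was Fabp1, a fatty acid binding protein of liver and gut, with 96.4, 34.5 and 39.2 TPM in tuft cells and 0 in non-tuft cells. It was above 0 in 26.4% of tuft cells, and the highest cell held 15.8% of its summed level.

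Nuclear receptors of the HNF4 family, which drive enterocyte genes, bind sequences such as CAAAGTCCA. That sequence on either strand was in the windows of 7 genes called lower (1.91% of those with a window), 0 called higher, 11 of 1659 not called (0.663%) and 0.555% of all 27025. The window of Cyp2c65, a cytochrome P450 with 1.62 TPM in tuft cells and 19.8 TPM in non-tuft cells, lies at chr19:39060756-39061055, plus strand, and holds it once, in capitals. It was chosen for its motif after the values were seen.
Cyp2c65: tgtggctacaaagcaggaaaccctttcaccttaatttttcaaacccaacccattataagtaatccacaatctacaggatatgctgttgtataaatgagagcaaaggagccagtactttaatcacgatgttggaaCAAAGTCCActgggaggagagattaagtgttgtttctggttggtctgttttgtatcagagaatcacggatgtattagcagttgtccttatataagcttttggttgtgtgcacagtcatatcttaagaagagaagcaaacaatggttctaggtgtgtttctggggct
Hnf4a itself, the best known member of that family, had 26.6, 29.2 and 17.1 TPM in tuft cells, against 31.3, 15.7 and 23.1 TPM in non-tuft cells, and was not called.

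Among 21 epithelial transcription factors 14 reached 10 TPM, and 5 were called lower and none higher. Of all genes tested 15.6% were called lower and 7.40% higher. Isx, an intestinal homeobox gene, had 0.702, 1.25 and 0.555 TPM in tuft cells, against 30.8, 20.1 and 15 TPM in non-tuft cells, Nr1h4, the bile acid receptor FXR, 0.34, 0.335 and 0.318 TPM in tuft cells, against 11.2, 19.2 and 9.22 TPM in non-tuft cells, and Vdr, the vitamin D receptor, 7.12, 5.98 and 3.89 TPM in tuft cells, against 32.1, 16.9 and 19.4 TPM in non-tuft cells. Cdx1, a factor of gut identity, averaged 40.1 TPM in tuft cells and 21 TPM in non-tuft cells and was not called. Elf3 and Klf5, factors of epithelial differentiation, were not called either, at −1.08 ± 0.48 and −0.73 ± 0.26. Of 23 junction genes 19 reached 10 TPM and 6 were called lower. Cldn4, a tight junction claudin, averaged 0.537 TPM in tuft cells and 41.2 TPM in non-tuft cells, and Cldn23, of the same family, differed by −3.99 ± 0.36 (SD, n = 3). Epcam had 84.1, 96.9 and 55.2 TPM in tuft cells, against 276.4, 156.2 and 249.9 TPM in non-tuft cells and was not called, as plate set 3 fell short of 2-fold. Cdh1, the epithelial cadherin, had 42.6 TPM in tuft cells and 53.8 TPM in non-tuft cells. Of 20 transporters 11 reached 10 TPM and 5 were called lower, among them Slc6a14, an amino acid transporter, at −3.75 ± 0.92 and Slc9a2, a sodium-proton exchanger, at −3.46 ± 0.33 (SD, n = 3).

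Most genes of the early response to stimulation were lower in tuft cells. Of 16 listed genes 12 reached 10 TPM and 11 were called lower. Fos, a component of the factor AP-1, had 15.5, 19.5 and 12.4 TPM in tuft cells, against 293.4, 252.4 and 281.4 TPM in non-tuft cells and was above 0 in 22.1% of tuft cells and 91.1% of non-tuft cells. Its partner Jun had 17.9, 14.4 and 13.9 TPM in tuft cells, against 135.9, 109.5 and 124.9 TPM in non-tuft cells, and Atf3, a stress-induced factor, 1.74, 0.934 and 1.07 TPM in tuft cells, against 89.6, 57.4 and 80.3 TPM in non-tuft cells. Egr1, a zinc finger factor, and Dusp1, a phosphatase of MAP kinases, differed by −3.59 ± 0.64 and −3.55 ± 0.08 (SD, n = 3). Hsp90aa1, a heat-inducible chaperone, was not called and pointed the other way, with 127.2, 85.3 and 63.5 TPM in tuft cells, against 26.9, 39.7 and 40.7 TPM in non-tuft cells.

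Of 22 cell cycle genes 8 reached 10 TPM and 5 were called lower, where 15.6% of all genes tested were called lower. Among the 5 was Ccnd2, a D cyclin, with 2.81 TPM in tuft cells and 24.7 TPM in non-tuft cells. Mki67, a marker of dividing cells, was above 0 in 3.68% of tuft cells and 13.4% of non-tuft cells. Of 15 stem and progenitor genes, Lgr5, the receptor that marks crypt stem cells, was called higher, with 29.8, 35.6 and 20.2 TPM in tuft cells, against 4.31, 0.507 and 4.06 TPM in non-tuft cells. It was above 0 in 59.5% of tuft cells and 8.93% of non-tuft cells, while Olfm4, Smoc2, Axin2 and Ascl2 were below 10 TPM in both classes. Of 30 ribosomal protein genes 28 reached 10 TPM and 3 were called lower (Rplp1, Rpl4 and Rpsa), with a median over all 30 of −0.80 (−0.08 after rescaling). With logs averaged over cells that median turned to 0.22. Of 22 nuclear genes of oxidative phosphorylation 21 reached 10 TPM, and Cox5a and Uqcrc2 were called lower. In both lists the share called lower was below the 15.6% of all genes tested. None of these 5 calls was kept after rescaling. The mitochondrial genome gave 1 higher call, mt-Nd3, held by 3.68% of tuft cells, and 1 lower, mt-Co1, with 801.1, 796.98 and 962.9 TPM in tuft cells, against 2646, 3416 and 2534 TPM in non-tuft cells. Inositol phosphate kinases included no called gene. Ipmk, the gene floxed in the other plates, had 2.19, 1.61 and 1.68 TPM in tuft cells, against 7.93, 11.8 and 8.56 TPM in non-tuft cells. Its difference was −1.87, but it averaged below 10 TPM in each class and so could not be called.

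Antigen-presentation genes were not called. The class II genes H2-Aa, H2-Ab1, H2-Eb1 and Cd74 had up to 1.41 TPM in tuft cells of any plate set, and Cd74 had 758.9, 0 and 846.4 TPM in non-tuft cells. The macrophage sum of non-tuft cells, given above, was also lowest in plate set 3. Without the 16 non-tuft cells that held immune genes, Cd74 among those that chose them, the median difference of the class II list was 0.05, against −5.38 with them. The class I median was −0.06 without them and −1.08 with them, and the macrophage median 0 without them and −0.58 with them. Cd74 was above 0 in 3 tuft cells (1%) and 15 non-tuft cells (13.4%). Class I genes had differences of both signs: H2-K1 had 91.6 TPM in tuft cells and 200.4 TPM in non-tuft cells and H2-D1 146.5 TPM in tuft cells and 105.4 TPM in non-tuft cells. Of 13 enteroendocrine genes Sct alone reached 10 TPM and was called higher, with 25.2, 25.6 and 28.3 TPM in tuft cells, against 3.43, 2.36 and 3.85 TPM in non-tuft cells. It encodes secretin, and 24.4% of tuft cells and 4.46% of non-tuft cells held it. Pyy and Gcg were listed at 0 in both classes, and Chga was at 0 in tuft cells and above 0 in 1 non-tuft cell.

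**Figure D4:**
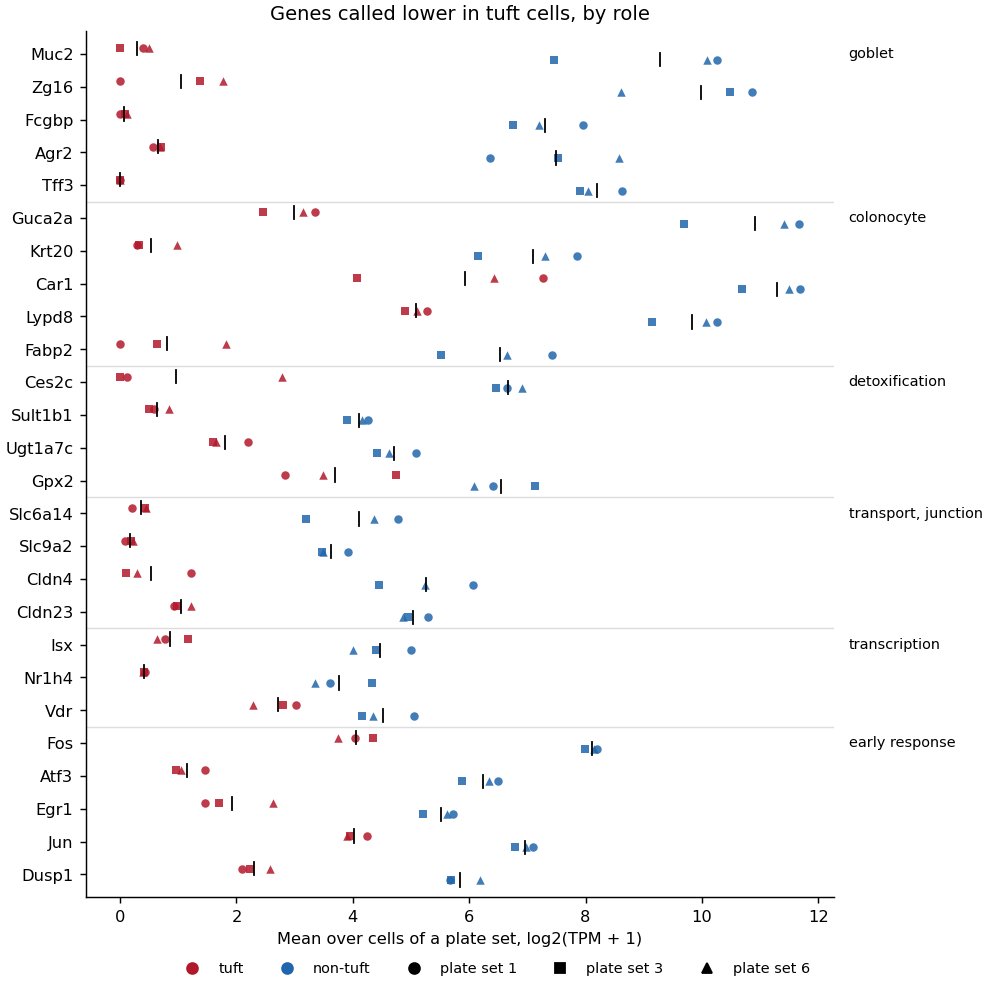
Levels of 26 genes called lower in tuft cells, by role. Each point is the mean over cells of a plate set in log2(TPM + 1), red for tuft and blue for non-tuft cells, with a marker per plate set and a bar at the mean of the 3 sets. All red points lie left of the blue points of the same gene, and Tff3 is at 0 in every tuft cell. The classes did not overlap for 47% of all genes tested.

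**Figure D5:**
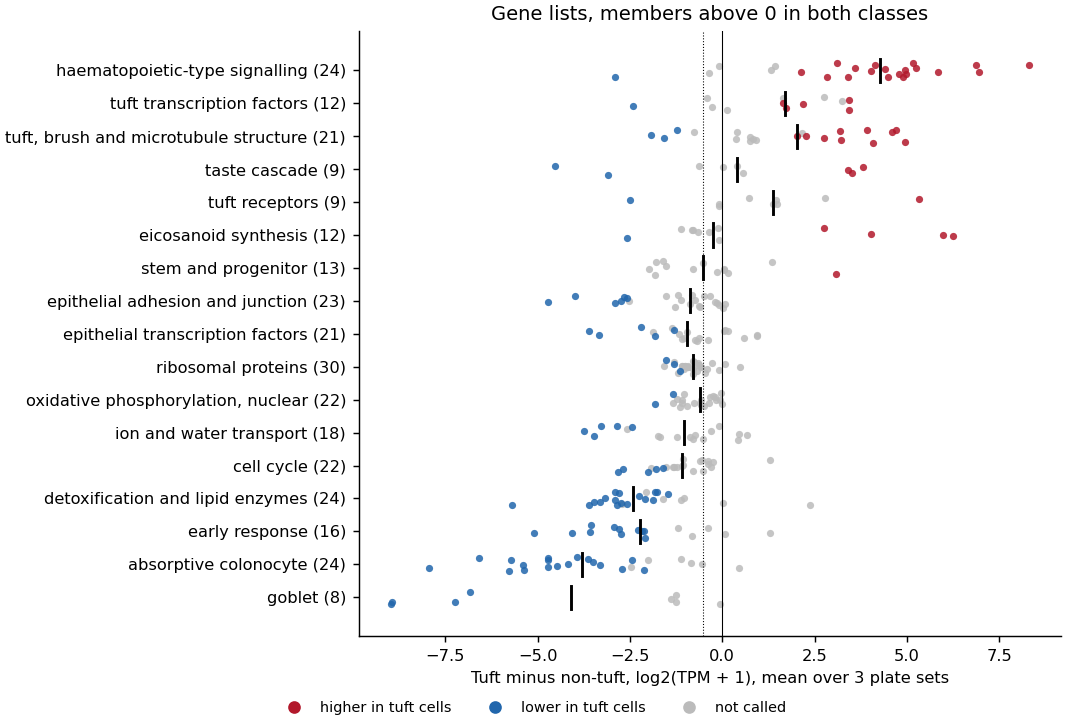
Tuft minus non-tuft differences in log2(TPM + 1), averaged over 3 plate sets, for the members of 17 gene lists that were above 0 in both classes (their number in parentheses). Red members were called higher, blue lower and grey not called, the bar is the list's median and the dotted line the median of all genes tested, −0.51. Blood-cell signalling lies farthest right with a median of 4.26, and goblet and colonocyte genes lie farthest left.

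The genes called higher were not equally common among tuft cells. Of them 24.6% were above 0 in over 90% of tuft cells and 10.8% in under 25%. A tuft cell held a median of 68.1% of them, with a range of 35.3% to 87.5%. Cells between the rules held a median of 41.4% (7.33% to 67.7%) and non-tuft cells a median of 18.5% (2.59% to 55.6%). The genes were called in these same tuft and non-tuft cells, so a gap between those classes was built in. Besides Krt18 and Atp2a3, the genes held by nearly all tuft cells included Ptpn18, a phosphatase (99.7% of tuft cells and 51.8% of non-tuft cells), and Ptpn6 (100% of tuft cells and 26.8% of non-tuft cells). At the other end stood Gng13, Atp2b4 and Sct. In cells between the rules the mean lay between the class means for 84.9% of the genes called higher and 83.4% of those called lower. Krt18, for instance, averaged 587.9 TPM there, and Guca2a 461.9 TPM. No such share over all genes tested is given, so these shares are a description only.

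One non-tuft cell of plate set 3, labelled epithelial, stood apart. It held 55.6% of the genes called higher, against 36.2% in the next non-tuft cell, and 35.3% in the tuft cell with the fewest, and it had 5945 genes above 0. It gave 161.5 TPM of Pou2f3, 2012 TPM of Lrmp, an endoplasmic reticulum protein of lymphocytes and taste cells, and 1850 TPM of Cd24a, but 0 TPM of Siglecf. It was the highest non-tuft cell for 57 genes called higher and held over 50% of the summed non-tuft level of 17. It was picked for holding the most genes called higher, so its omission could hardly end a higher call. Without it every gene called higher kept its call, and 88.3% of those called lower did. The calls of Ocln (a tight junction protein), Rpl4, Rplp1 and Stmn1 (a tubulin-binding protein) were lost. The non-tuft mean of Avil in plate set 3 was 7.91 TPM without it and 34.8 TPM with it.

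The comparison was repeated in wells the wild-type values had not used. In the plates of VillinCre;IPMKf/f mice the same rule gave tuft and non-tuft cells that were 15.5% and 9.89% of the wells of the series, over plate sets 2, 4, 5 and 7. Of all 3134 genes tested in wild type, 6.80% were at least 2-fold higher in tuft cells in each of these 4 plate sets and 13.5% at least 2-fold lower. A mean difference above 0 was found in 36.9% of them and one below 0 in 62.2%, with a median of −0.40. Of the genes called higher in wild type, 73.3% were at least 2-fold higher in each of the 4 plate sets, and 96.98% had a mean above 0. Of those called lower, 61.3% were at least 2-fold lower in each set, and 98.8% had a mean below 0. The median difference of the genes called higher was 3.00 in these plates and 3.04 in wild type, and that of genes called lower was −2.20 and −2.48. Sh2d6 had 422.7, 1015, 926 and 1469 TPM in tuft cells of these plates, against 0, 0, 1.4 and 0 TPM in non-tuft cells. Plate set 7 gave only 9 tuft cells. Fos differed by −2.56 ± 1.11 (SD, n = 4) in these plates and −4.06 ± 0.39 (SD, n = 3) in wild type, and Egr1 by −1.34 ± 2.06 and −3.59 ± 0.64. Egr1 had the opposite sign in plate set 7, at 1.47. Whether the genotypes differ in these values was not tested.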

How the data were processed

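Sorted single cells were profiled in plates with a modified Smart-seq2 protocol, which makes full-length cDNA from polyadenylated RNA, and per the labels' protocols wells with late or no GAPDH amplification were discarded. The deposited values are TPM, which the authors made with Bowtie2 2.4.2 and RSEM 1.3.3 on mm10, per the submitters' processing notes, and every column used sums to between 999999 and 1000001. Of settings, strand handling and read depth nothing is given in the sources used, and TPM keeps no depth. RSEM shares reads among similar transcripts by a model, so paralogs and pseudogenes are uncertain.

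Of 643 wild-type wells 505 had at least 1000 genes above 0 TPM, of which 299 were tuft cells (57, 74 and 168 by plate set), 112 non-tuft cells and 94 neither. The plates of VillinCre;IPMKf/f mice gave 187 tuft and 119 non-tuft cells. Of 3134 genes tested, 232 were called higher and 488 lower. Wells with fewer genes were left out, and 38 columns, those of the second plate of plate set 7, were not used, as none reached the minimum number of genes. No identical columns were found and no doublet caller was run. Classes, differences, the 10 TPM floor, the pseudocount of 1 TPM and the 2-fold rule are as given above. No test was run: cells are not replicates, and plate sets are parts of 1 sample. Differences are taken within plate sets, so tuft and non-tuft cells are paired by plate set.

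Named are Trpm5, Dclk1, Siglecf, Epcam and Ipmk, the 15 called genes with the largest and the 15 with the smallest difference, the 10 most abundant called genes in each direction, and in each of 32 gene lists up to 4 called members per direction and up to 3 others that reached 10 TPM. Further list members are given as examples and were chosen after their values were seen. Symbols of Gm plus digits, of Rik type, of pseudogenes and of clones are counted but not named, and 3 named genes are not reported here. The cells, members and lists were chosen with earlier results of these data known. Gene positions are those of GENCODE M21. The procedure was run on real values shuffled over cells within a plate set, with some genes changed by known folds well above 2-fold. That run does not show how smaller changes, or genes held by few cells, are called. Python 3.11.15, numpy 2.4.6, pandas 2.3.3 and scipy 1.17.1 were used. Alternatives covered the pseudocount, the floor, the scaling, the plate sets, the labels, the thresholds on cells, single cells of high level and the fold.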

Additional observations from a re-analysis of the deposited data

Results flagged for a closer look

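Plate sets of VillinCre;IPMKf/f mice that stood apart were looked for among 92 named and called genes with values above 0 in both classes, each with 4 plate-set differences in log2(TPM + 1). In 7 genes the lowest or highest set was separated from the others by a share of the whole range above Dixon's 95% critical value for 4 values. Chance flags about 1 in 20 groups. Avil was 5.6 in plate set 2 and between 6.29 and 6.33 in the others. Plcg2 was 4.11 in plate set 4, against 4.93 to 4.96. Trpm4 was −3.29 in plate set 5, against −1.89 to −1.77. Rplp1 was −1.49 in plate set 2, against −0.56 to −0.44. Plate set 7, with 9 tuft cells, was the separate one for Eps8 at −2.13 (−0.98 to −0.81 in the others), Rpl4 at −0.33 (−1.54 to −1.35) and Stmn1 at −1.17 (−2.83 to −2.67). Each of these genes kept the sign of its wild-type difference in all 4 plate sets. No named gene that reached 10 TPM had one sign in every wild-type plate set and the opposite sign in every plate set of VillinCre;IPMKf/f mice.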

How the results depend on the processing

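The numbers of genes called higher (7.40% of 3134) and lower (15.6%) depended on the settings, while no gene called in one direction was called in the other under any of them. As multiples of these numbers, a pseudocount of 10 TPM gave 0.543 for higher and 0.398 for lower, no filter on low values 2.04 and 1.75, and a floor of 50 TPM 0.254 and 0.242. Rescaling gave 5.34 and 1.82, with 10154 genes then admitted by the 10 TPM minimum. It kept 97.84% of the higher and 75% of the lower calls. Rescaling with a floor of 50 gave 2.78 for higher and rescaling over the same 3134 genes 1.68, both added after seeing the data. For lower genes these settings gave 1.03 and 0.803. A 4-fold rule gave 0.556 and 0.416, and a 1.5-fold rule 1.56 for lower. For lower genes the multiple was 0.596 with logs averaged over cells, 0.641 with the highest cell left out and 1.6 in cells with at least 2000 genes. Leaving out 1 plate set gave 1.06 to 1.59 for higher, the highest without plate set 6, and 1.15 to 1.83 for lower, the highest without plate set 3, since fewer sets had to pass. With no replicate block, cells pooled over plate sets instead of paired within them gave 2.19 for lower, and 94.8% of the higher and 95.7% of the lower calls were kept. Without the 16 non-tuft cells that held Ptprc, Cd3e, Cd74, Lyz2 or Cd52, left out after seeing the data, 98.7% and 88.5% were kept. In cells with 2000 to 4000 genes the multiple for lower was 1.01, yet 78.02% of the higher and 57.79% of the lower calls were kept and 9 called genes changed sign. In wells labelled tuft alone 93.53% and 66.8% were kept and 1 changed sign. Of the named genes that were called, 2 changed sign: Rplp1 was 0.41 with logs averaged, and Coro1a was 0.92 without the non-tuft cells that held immune genes. Named genes that were not called are outside this count, and some of them changed sign too. With logs averaged, the ribosomal protein genes Rpl13a and Rpl19 went from −0.67 to 0.99 and from −0.42 to 0.89. For the other changes the cause was not tested. Read depth is unknown, so a level of 0 TPM was not separated from low depth.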

Other observations

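Several genes outside the lists were higher in tuft cells. They were picked after their values were seen. Nebl, a nebulin-like protein of actin filaments, was above 0 in 95.7% of tuft cells at 27.01, 29.9 and 27.01 TPM and was listed at 0 in non-tuft cells. Kit, the receptor of stem cell factor, had 45.7, 35.7 and 30.96 TPM in tuft cells, against 1.8, 8.84 and 6.44 TPM in non-tuft cells, and Cdkn1c, an inhibitor of cyclin-dependent kinases, 46.1, 53.1 and 76.97 TPM in tuft cells, against 0, 3.74 and 0.869 TPM in non-tuft cells. Msi1, an RNA-binding protein of stem cells, was above 0 in 53.5% of tuft cells and no non-tuft cell. Calhm3, a subunit of the ion channel through which taste cells release ATP, had 23.5, 9.56 and 8.53 TPM in tuft cells, 24.1% of which held it, and was listed at 0 in non-tuft cells. Among genes lower in tuft cells, Sgk1, a kinase induced by mineralocorticoids, had 5.28, 4.08 and 1.17 TPM in tuft cells, against 89.8, 79.3 and 45.95 TPM in non-tuft cells, and Ces2a, a carboxylesterase, 0, 0.371 and 0.196 TPM in tuft cells, against 42.4, 101.5 and 41.1 TPM in non-tuft cells.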
